A study of Mus musculus with 3 samples.

Results

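The cells described here are Müller glia of the injured adult mouse retina, and they are called five-gene-high cells. They were chosen by the summed transcripts of Hmga2, Cd24a, Clcf1, Cdsn and Neurog2, and a cell did not need to carry all 5. A cell was chosen when its unique molecular identifiers (UMIs, 1 per captured transcript) of these 5 genes came to at least 4 per 10000 of its total. It also had to hold less than 2 of Igfbp2, less than 10 of Ccl2, less than 5 of Pde6h and of Gngt1, and less than 2 of C1qa, C1qb and C1qc together, on the same scale. This gave 1704 of 24672 cells, with 592 in run 1, 480 in run 2 and 632 in run 3. Their reference was the 6169 cells of the same runs whose five-gene sum was 0 under the same other limits, called zero-sum cells (1782, 2032 and 2355 in runs 1, 2 and 3). The 5 genes were picked from earlier results of these same cells, so their levels are given as a description. Syt4 was picked with them as a marker of these cells, so its test below is no separate support for the class. The tests on other genes show how far a difference repeated over the 3 runs.

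All cells came from 1 group of adult mice that carried Yap5SA+/tg, ROSA26R-tdTomato+/tg and Glast-CreERT+/tg. The Glast promoter drives the tamoxifen-dependent Cre in Müller glia and also in other Glast-expressing cells such as retinal astrocytes. Tamoxifen thereby turned on Yap5SA, a form of YAP that the Hippo kinases cannot restrain, together with the red label, and N-methyl-D-aspartate (NMDA) then injured the retina. After 2 days, red cells were sorted and profiled on 10X Chromium 3' v2 droplets in 3 runs, and neither an uninjured retina nor one without Yap5SA was among the samples. The labels do not say that the runs came from separate animals, so every p-value below measures the spread between runs, which may be technical.

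Müller glia span the retina and take up glutamate, recycle retinoids and hold ions and water in balance. In fish, after injury, they lose glial transcripts, pass through a proneural state and re-enter the cell cycle, whereas in mammals they seldom do. The 5 genes have separate known roles. Hmga2 is a chromatin architectural protein of embryonic and tumour cells, Cd24a a small cell surface glycoprotein of neuroblasts and epithelia, Clcf1 a cytokine that acts through the CNTF receptor and gp130, Cdsn the adhesive protein corneodesmosin of skin, and Neurog2 a proneural transcription factor. In GENCODE M21 (GRCm38) the protein-coding genes lie at chr10:120361275-120476469 (Hmga2, minus strand), chr10:43578284-43584265 (Cd24a, plus), chr19:4214238-4223490 (Clcf1, plus), chr17:35552128-35557180 (Cdsn, plus) and chr3:127633135-127635631 (Neurog2, plus). Clcf1 and Hmga2 overlap other annotated genes on both strands, and Syt4, described below, overlaps 1 on the opposite strand. Since the use of strand in counting is not given, some of their reads may belong to those genes.

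The count table held 24695 cells and 18478 genes, with 94858762, 122888236 and 97032672 UMIs in runs 1, 2 and 3, and 83 to 108 cell barcodes were shared by pairs of runs. Of the five-gene-high cells, 49 had a shared barcode. Their median total was 10042 UMIs, against 8258 in zero-sum cells, so alternatives with thinned or depth-matched cells are given where depth bears on a result. All levels below are UMIs per 1000000 (CPM) of the summed cells of a class and run. A change in CPM is a change in the share of RNA, and fewer transcripts of a gene per cell cannot be told apart from more RNA of other genes.

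Five-gene-high cells made up 7.72% of the cells of run 1 (exact Clopper-Pearson 95% interval 7.13 to 8.34), 5.46% of run 2 (4.99 to 5.95) and 7.70% of run 3 (7.13 to 8.30), and these intervals cover counting error alone. In run 2 the limit on Ccl2, a monocyte chemokine, removed more cells than in the other runs, and its part in the lower share was not tested. Of 816 cells of run 2 with a sum of at least 4, this limit took out 221, against 8 of 801 in run 1 and 40 of 822 in run 3. The limit on Igfbp2 took out 450 cells over the runs, the limits on Pde6h and Gngt1 91 and the C1q limit 7. A cell could fail more than 1 limit, so the counts of the limits overlap.

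The class is the upper end of a range and has no gap at its lower edge. Its five-gene sum had a median of 6.13 and quartiles of 4.78 and 8.98, with a highest value of 67.2. Just inside the limit, 513 cells had a sum of 4 to 5, and just outside it 902 cells had a sum of 3 to 4. A sum of at least 10 was reached by 177, 54 and 126 cells in runs 1, 2 and 3. The cells below the limit but above 0 numbered 7227.

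All 12 listed Müller markers, Glul, Rlbp1, Slc1a3 and Aqp4 among them, stood at 50 CPM or more in five-gene-high cells. Summed over the list they held 18210, 18440 and 15869 CPM in five-gene-high cells, against 32625, 28447 and 29605 CPM in zero-sum cells. Over single cells, the median of Glul was 7.76 UMIs per 10000 in five-gene-high cells and 20.01 in zero-sum cells. That of C1qa, a microglia gene that the rule limited in both classes, was 0 in both. Rod markers summed to 603, 1001 and 684 CPM in five-gene-high cells, less than the 1597, 1524 and 1560 CPM of zero-sum cells. No cone, bipolar, ganglion, microglia, pericyte or pigment epithelium marker on the lists reached 50 CPM in five-gene-high cells, and Isl1, Slc32a1, Slc17a6, Isl2, Lhx1, Tmem119, Cdh5, Myh11 and Mlana were at 0. The other lists did hold markers at 50 CPM or more there: 5 rod, 4 astrocyte, 2 endothelial, and 1 each of amacrine, horizontal and oligodendrocyte. In zero-sum cells these were 7, 3 and 2, and again 1 each. The endothelial list summed to 569, 660 and 641 CPM in five-gene-high cells, against 809, 765 and 759 CPM in zero-sum cells. The Müller part of the name rests on the presence of the Müller markers, at lower levels than in zero-sum cells. The rule itself limited C1q, Pde6h and Gngt1, so low microglia and photoreceptor markers are no separate support for it.

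Cd24a was the largest of the 5 parts of the chosen signal in every run. In five-gene-high cells of runs 1, 2 and 3 the levels were 389, 305 and 351 CPM for Cd24a and 290, 97.8 and 128 CPM for Cdsn. Clcf1 stood at 86.0, 128 and 169 CPM, Hmga2 at 113, 131 and 109 CPM, and Neurog2 at 71.8, 28.9 and 38.8 CPM. Hmga2 was thus the most even of the 5 over the runs, while Cdsn and Neurog2 were highest in run 1 and Clcf1 in run 3. Cd24a was the larger part of the sum in 652 cells (38.3%), Cdsn in 192, Clcf1 in 133, Hmga2 in 87 and Neurog2 in 61. Of the 5 genes, at least 2 had a UMI in 1459 cells (85.6%), at least 3 in 898 (52.7%), and all 5 in 44. In 176 cells Cd24a was the sole gene of the 5 with a UMI.

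Shares of cells with a UMI were read against the 62 sorted cells with at least 10 C1q UMIs per 10000, immune-type cells in which these genes were not looked for and whose median total was 15571.5 UMIs. These C1q-high cells numbered 40, 15 and 7 in runs 1, 2 and 3, so a single cell moves a share. Five-gene-high cells were chosen by Cd24a and Neurog2 among others, so higher shares of both follow from the rule. After thinning to 3500 UMIs per cell, Cd24a was found in 61.7% ± 2.85 of five-gene-high cells, against 13.4% ± 0.894 of C1q-high cells (SD, n = 3 runs). Neurog2 was found in 11.04% ± 5.51 of thinned five-gene-high cells and in none of the C1q-high cells, and unthinned in 24.3% ± 8.12 against 3.06% ± 3.37. Most cells of the class therefore had no Neurog2 UMI at this depth, although the gene is in the name.

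Each gene was then measured in cells chosen by the other 4 alone, so that it had no part in the choice. Hmga2 stood at 102, 89.2 and 92.8 CPM in cells whose other 4 genes summed to at least 4, against 7.82, 7.42 and 6.28 CPM in cells where they summed to 0, a ratio of 13.0, 12.02 and 14.8 in runs 1, 2 and 3. Cdsn gave ratios of 15.0, 3.77 and 10.5, Cd24a of 6.12, 3.39 and 5.69, and Clcf1 of 4.12, 3.81 and 4.43. These 4 genes thus occurred together in every run. Neurog2 stood at 39.1, 11.1 and 22.3 CPM against 14.8, 9.18 and 9.52 CPM, and its ratios of 2.64, 1.21 and 2.34 were the lowest of the 5 in each run. In run 2 its level was close to that of the cells without the other 4.

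**Figure D1:**
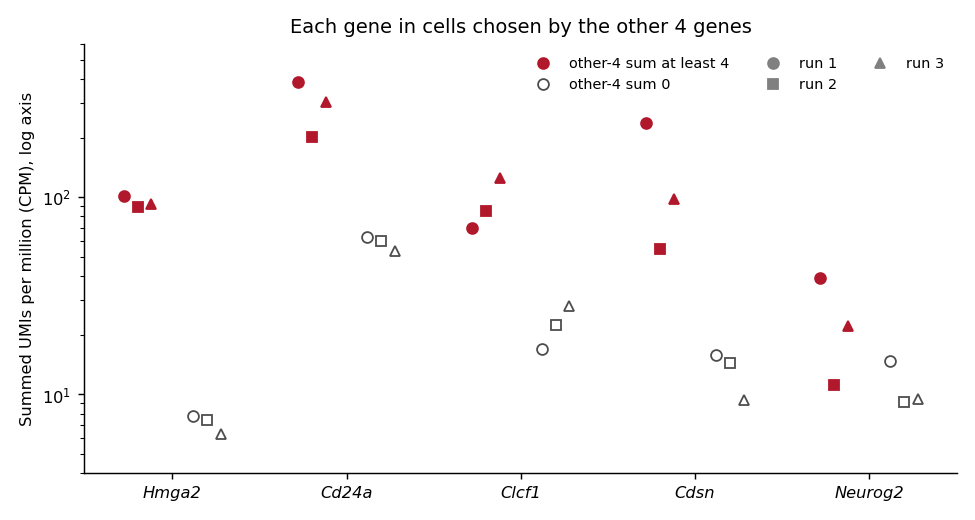
Level of each of the 5 genes (CPM of summed cells, log axis) in cells chosen by the other 4 genes at a sum of at least 4 (filled, left) or of 0 (open, right), with 1 symbol per run. Hmga2 lies at 89.2 to 102 CPM on the left and 6.28 to 7.82 CPM on the right, while the 2 sets of Neurog2 overlap.

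Among the 20 ordered pairs of the 5 genes, Hmga2 with Clcf1 and Neurog2 with Cd24a are given here. In cells thinned to 3500 UMIs, Hmga2 was found in 15.4%, 13.0% and 12.3% of cells with a Clcf1 UMI in runs 1, 2 and 3, against 4.63%, 3.62% and 3.47% of cells without one. Neurog2 was found in 6.42%, 2.87% and 4.72% of cells with a Cd24a UMI, against 5.50%, 2.92% and 3.57% of cells without. The pairs differed in strength. Clcf1 with Cd24a lay between these 2, with Clcf1 in 10.1%, 12.3% and 17.4% of cells with a Cd24a UMI. In cells without one it was found in 7.40%, 8.17% and 9.67%. A split of each cell's UMIs at random into 2 sets, 1 to choose the cells and 1 to measure them, gave 2012 cells. In the unused UMIs the mean over runs in these cells was 13.8 times that of the zero-sum cells for Hmga2, 11.4 for Cdsn, 5.84 for Cd24a, 4.79 for Clcf1 and 3.30 for Neurog2.

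Syt4, a synaptotagmin of dense-core and synaptic vesicles and not part of the sum, followed the class. It had 50.3, 9.73 and 12.3 CPM in five-gene-high cells of runs 1, 2 and 3, against 3.34, 2.38 and 2.46 CPM in zero-sum cells. The classes did not overlap, and run 1 was far above the other runs. The change was 2.92 ± 0.29 on the log2 scale (SE, 3 run pairs; edgeR adjusted p = 3.38e-05), and 2.23 without run 1. A UMI of Syt4 was found in 9.85% ± 5.69 of five-gene-high cells, against 2.13% ± 0.374 of zero-sum cells and 2.22% ± 3.85 of C1q-high cells (SD, n = 3).

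Of 12519 genes tested, 20.7% were higher and 19.9% lower in five-gene-high cells, and every list below is to be read against these shares. The classes' runs did not overlap in 39.8% of genes, and the rule for naming genes was met by 0.767% upwards and 0.647% downwards. Asns, asparagine synthetase, rose most among the genes named by rule, with 78.4, 13.5 and 27.3 CPM in five-gene-high cells against 3.01, 2.70 and 2.09 CPM in zero-sum cells (log2 change 3.74 ± 0.30, edgeR adjusted p = 9.84e-06, and 3.10 without run 1). Pdgfa, the ligand that guides retinal astrocytes, had 54.4, 49.9 and 50.6 CPM against 11.8, 9.11 and 11.98 CPM (2.26 ± 0.10). It was the most even of these genes over the runs, and its classes lay well apart. Hmga1, the relative of Hmga2, had 77.6, 19.8 and 102 CPM against 9.35, 4.50 and 20.2 CPM (2.57 ± 0.14). Its ranges overlapped, because run 3 was high and run 2 low in both classes, and it was higher in each run. The other named rises were those of Hbegf, Phgdh and Fosl1, described below, the microtubule-binding Nav3 (1.89 ± 0.11), the oxysterol-binding family member Osbpl6 (1.88 ± 0.12), the membrane protein gene Emp1 (1.86 ± 0.16) and the glutathione transferase Gsto1 (1.80 ± 0.22).

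Transcripts of mature Müller glia were lower. Of 25 tested identity genes 21 fell and 0 rose, with a median log2 change of -0.75, beside -0.02 over all genes tested. Apoe, a lipid carrier, stood at 2906, 3155 and 2912 CPM in five-gene-high cells, against 9534, 8655 and 10217 CPM in zero-sum cells, a change of -1.64 ± 0.09 (edgeR adjusted p = 1.31e-06). Glul, glutamine synthetase, had 1087, 1131 and 827 CPM against 2982, 2117 and 2136 CPM (-1.22 ± 0.10). Each class kept to its own range for both genes. Clu, a secreted chaperone, changed by -1.20 ± 0.12, Rlbp1, the retinaldehyde-binding protein, by -0.84 ± 0.07, and Dbi by -0.51 ± 0.08. Sox9, a transcription factor of glia and progenitors, changed by -0.29 ± 0.07 (edgeR adjusted p = 0.0103) and did not pass without run 1 (-0.22) or without run 3 (-0.26). The glutamate transporter Slc1a3, and Crym, Cp and Rdh10, did not pass.

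The named falls were headed by Igfbp7, which stood at 3.89, 2.05 and 3.35 CPM in five-gene-high cells against 174, 10.5 and 16.4 CPM in zero-sum cells (-4.12 ± 0.44, and -2.26 without run 1). Igfbp7 is also made by vessel cells, and the 8 listed pericyte markers in zero-sum cells summed to 92.0, 25.6 and 25.3 CPM in runs 1, 2 and 3, beside 19.98, 16.6 and 17.2 CPM in five-gene-high cells. Their part in the Igfbp7 value was not tested. Aldh1a1, a retinaldehyde dehydrogenase, had 79.4, 77.3 and 71.3 CPM against 308, 313 and 314 CPM (-2.01 ± 0.07). It varied little between runs in either class. Hes5, an effector of Notch signalling, had 10.5, 35.3 and 38.1 CPM against 65.4, 111 and 149 CPM (-1.98 ± 0.14). The others were the calcium-binding Necab2 (-2.11 ± 0.15), the nuclear receptor Nr2f2 (-1.78 ± 0.14), angiotensinogen, Agt (-1.77 ± 0.11), the apolipoprotein Apoc1 (-1.76 ± 0.08), the interferon-induced Ifitm2 (-1.66 ± 0.20) and the G protein subunit Gna14 (-1.62 ± 0.12). Agt is also on the astrocyte marker list, which summed to 937, 1003 and 702 CPM in five-gene-high cells against 1391, 1031 and 940 CPM in zero-sum cells.

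Levels changed stepwise with the five-gene sum, on both sides of the limit. Apoe had 9534, 8655 and 10217 CPM at a sum of 0 and 824, 1167 and 823 CPM at a sum of 10 or more in runs 1, 2 and 3. Ccnd1, cyclin D1, had 166, 152 and 150 CPM at a sum of 0 and 762, 552 and 504 CPM at 10 or more. For Apoe, Ccnd1, Hmga1 and Fosl1 each step of the sum moved the level in 1 direction in every run. Gfap, an intermediate filament gene of reactive glia, was different. It had 940, 660 and 688 CPM at a sum of 4 to 6, near the 1004, 714 and 672 CPM at a sum of 0, and then 144, 384 and 118 CPM at 10 or more. Syt4 had 16.4, 6.90 and 6.82 CPM at a sum of 6 to 10, and 147, 36.4 and 31.4 CPM at 10 or more.

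**Figure D2:**
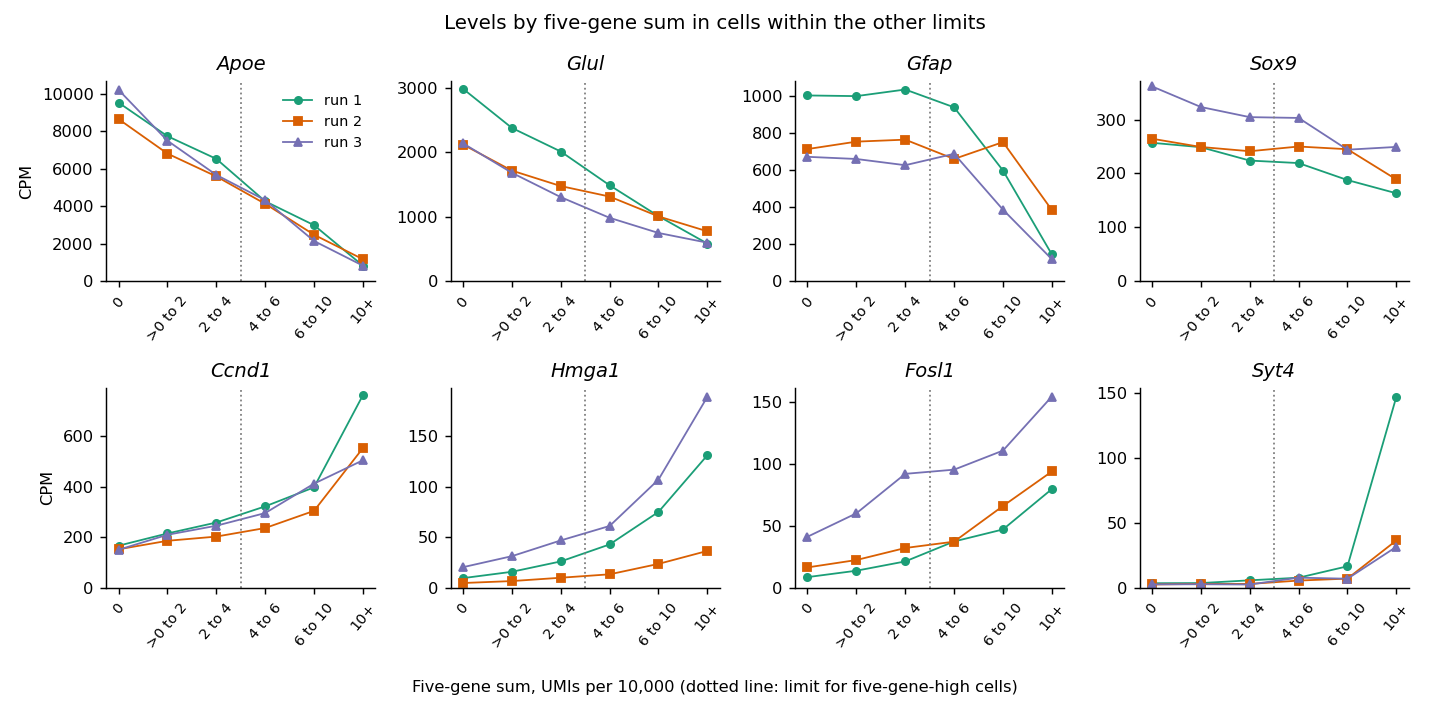
Levels (CPM of summed cells, axes from 0) of 8 genes in cells ordered by their five-gene sum, with 1 line per run and a dotted line at the limit of 4. Apoe declines at each step to 824, 1167 and 823 CPM in runs 1, 2 and 3, while Syt4 reaches 147, 36.4 and 31.4 CPM in the top bin.

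Genes of the integrated stress response rose as a group. This pathway senses amino acid shortage and misfolded protein, halts most translation and raises the transcription factor ATF4, which switches on amino acid synthesis and transport. Of 24 tested genes 17 rose and 4 fell, with a median log2 change of 0.76. Phgdh, the first enzyme of serine synthesis, had 247, 54.1 and 92.6 CPM in five-gene-high cells against 34.5, 30.6 and 25.02 CPM in zero-sum cells (1.92 ± 0.27, edgeR adjusted p = 0.000258). Nupr1, a stress-induced chromatin protein, had 3293, 2888 and 3600 CPM against 1934, 2082 and 1886 CPM (0.75 ± 0.09). Both genes were higher in each run, but Phgdh was most raised in run 1 and Nupr1 was even.

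Further genes of the list, chosen after their values were seen, were of low level. Trib3, a pseudokinase that curbs ATF4, had 30.8, 2.90 and 5.18 CPM in five-gene-high cells against 2.14, 1.22 and 1.23 CPM in zero-sum cells (2.75 ± 0.38, edgeR adjusted p = 0.000272). Chac1, which degrades glutathione, had 15.1, 2.56 and 5.94 CPM against 1.47, 1.75 and 1.66 CPM (2.09 ± 0.40). Run 1 was the highest for both, and without it the changes were 1.76 for Trib3 and 1.35 for Chac1. Mthfd2, of mitochondrial folate metabolism, changed by 1.71 ± 0.22, Slc7a11, the cystine transporter, by 1.32 ± 0.15, and Atf4 itself by 0.66 ± 0.16 (0.32 without run 1). The genes that fell were Cebpb (-0.34 ± 0.08), Slc3a2 (-0.21 ± 0.06), Ppp1r15a (-0.47 ± 0.09) and Ddit4 (-0.78 ± 0.08), and Ddit3, the gene of CHOP, had 153, 75.1 and 145 CPM against 76.6, 125 and 226 CPM and did not pass. Cebpb changed by 0.045 in the cells the authors kept, and Slc3a2 did not pass without run 1 (-0.20) or without run 3 (-0.17). Without run 1, 13 of 24 genes of the list rose, all 13 among the 17, and 4 fell, of which 3 had fallen with all runs.

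The promoters of several of these genes carry the composite site that ATF4 and C/EBP proteins bind as a pair, and stretches that hold it are shown as a description. The letters TGATGNAA were searched on both strands in the 250 bases before each gene's start in RefSeq (GRCm38.p6). They occurred in 4 of the 13 genes that rose and had a window (30.8%), and in 6 of 21 listed genes with a window (28.6%), beside 3.91% of 27025 genes overall. The list was made of known genes of this pathway, so its higher share describes the list and not these cells. Capitals mark the match, and each sequence reads 5′ to 3′ on the gene's strand.
Asns, chr6:7693210-7693252 (minus strand): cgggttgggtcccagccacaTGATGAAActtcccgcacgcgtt
Chac1, chr2:119351029-119351076 (plus strand): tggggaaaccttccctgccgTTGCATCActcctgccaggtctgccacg
Nupr1, chr7:126625553-126625600 (minus strand): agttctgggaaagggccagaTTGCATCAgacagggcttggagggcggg
Slc7a11, chr3:50443652-50443699 (minus strand): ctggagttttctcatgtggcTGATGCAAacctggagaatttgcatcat
The match begins 23, 193, 110 and 66 bases before the start of Asns, Chac1, Nupr1 and Slc7a11. In Chac1 and Nupr1 it lies on the other strand, and Slc7a11 holds a second match, on the other strand and left in lower case. The search describes letters and does not show binding. In the windows of Hmga2 and Neurog2 none of TGATGNAA, the AP-1 letters TGANTCA, the TEAD letters GGAATG and the E-box letters CANNTG occurred, and both windows of Cdsn were free of the first 3.

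Ligands of the epidermal growth factor receptor (EGFR) and feedback genes of the ERK kinases below it also rose. Of 24 tested 14 rose and 1 fell, with a median log2 change of 0.50. Hbegf, a membrane-anchored ligand, had 135, 146 and 302 CPM in five-gene-high cells against 31.2, 32.1 and 65.7 CPM in zero-sum cells (2.20 ± 0.07, edgeR adjusted p = 1.07e-07). The lowest run of five-gene-high cells was above the highest of zero-sum cells. Phlda1, an ERK-induced gene, had 231, 529 and 473 CPM against 132, 229 and 240 CPM (1.03 ± 0.08), and Spry2, a feedback inhibitor, 172, 297 and 461 CPM against 130, 191 and 234 CPM (0.71 ± 0.11). Both overlapped between classes but were higher in each run. The ligands Ereg (4.11 ± 0.30), Areg (1.59 ± 0.23), Tgfa (1.12 ± 0.19) and Btc (0.94 ± 0.16) and the urokinase receptor gene Plaur (3.13 ± 0.28) rose from low levels, Ereg with 2.03, 4.27 and 15.5 CPM against 0.134, 0.159 and 1.02 CPM. The receptor gene Egfr had 11.01, 16.7 and 13.1 CPM against 13.8, 17.3 and 14.7 CPM and did not pass, nor did the ERK phosphatase gene Dusp6 (0.03 ± 0.08, edgeR adjusted p = 0.756). The ligands other than Hbegf, and Plaur and Egfr, were named after their values were seen.

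**Figure D3:**
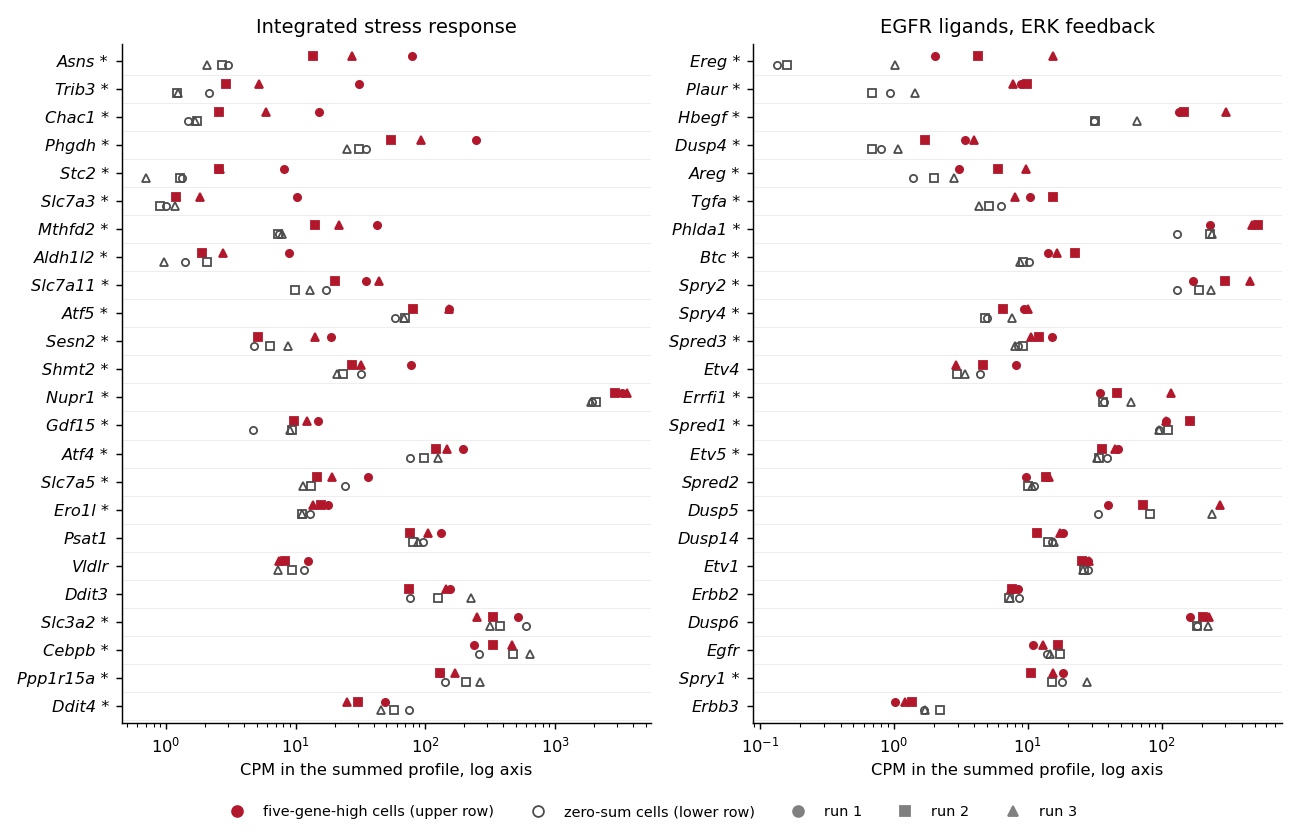
Levels (CPM, log axis) of the tested integrated stress response genes (left) and of EGFR ligands and ERK feedback genes (right) in five-gene-high cells (filled, upper row) and zero-sum cells (open, lower row), with 1 symbol per run and genes ordered by their change. An asterisk marks an edgeR adjusted p under 0.05, which 17 of 24 genes on the left and 14 of 24 on the right reached with a rise.

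Immediate early genes, which are switched on within minutes of a signal, were more often lower than higher. Of 24 tested 13 fell, 2 rose, the AP-1 subunits Fosl1 and Fosl2, and 9 did not pass, with a median of -0.45. Fosl1 had 52.2, 54.6 and 112 CPM in five-gene-high cells against 8.42, 16.3 and 41.0 CPM in zero-sum cells (1.89 ± 0.16, edgeR adjusted p = 1.31e-05). Fos had 1621, 1732 and 3084 CPM against 2470, 2779 and 4022 CPM (-0.53 ± 0.08), and Junb 618, 882 and 1356 CPM against 1134, 1574 and 2554 CPM (-0.85 ± 0.07). Run 3 was highest in both classes, which is why Fos and Junb overlapped though they were lower in each run. With no term for the run, 0 of 24 passed in either direction, and among the cells the authors kept 5 of 22 rose and 8 fell. Atf3, a stress-induced member of the family, had 54.2, 127 and 344 CPM against 46.6, 193 and 465 CPM and did not pass (-0.29 ± 0.12, edgeR adjusted p = 0.0752), while in the cells the authors kept it rose by 0.58 and without run 1 it fell by 0.47.

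Clcf1 signals through gp130, and the other genes of that axis showed no common rise. Of 20 tested 3 rose and 6 fell, with a median of -0.10. The gp130 ligand Lif rose (1.55 ± 0.14, edgeR adjusted p = 1.8e-05, named after its values were seen), with 8.47, 18.8 and 31.7 CPM in five-gene-high cells against 3.27, 5.45 and 12.1 CPM in zero-sum cells. The feedback inhibitor Socs3 had 145, 275 and 188 CPM against 345, 437 and 708 CPM (-1.25 ± 0.17). Its classes did not overlap. The receptor genes Cntfr (-0.47 ± 0.07) and Il6st, which codes for gp130 (-0.38 ± 0.08), were lower.

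Cyclin D1 was higher, while the counts of S and G2/M genes varied with the setting and the share of cells with G2/M transcripts differed little. Ccnd1 had 470, 300 and 375 CPM in five-gene-high cells against 166, 152 and 150 CPM in zero-sum cells (1.30 ± 0.09, edgeR adjusted p = 5.34e-06), and Cdk4, its kinase, changed by 0.70 ± 0.08. Among G1 regulators 9 of 22 rose and 6 fell. Cdkn1a, the inhibitor p21, changed by 0.92 ± 0.14 and Cdkn1b, the inhibitor p27, by -0.38 ± 0.07. Of 38 S phase genes 26 rose and 0 fell, with a median of 0.56, as in Mcm2 (1.40 ± 0.17) and Pcna (0.53 ± 0.11). In cells matched on total UMIs 15 of 35 rose, beside 15.3% of all genes tested there, and in cells thinned to 3500 UMIs 4 of 34, beside 10.6% of all genes.

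Of 49 G2/M genes 20 rose and 2 fell, with a median of 0.57. In depth-matched cells 3 of 41 were higher and 1 lower, beside 15.3% of all genes higher there. Without run 3 the count was 7 and 2 of 48, beside 14.5% of all genes higher. Without run 1 it was 29 and 1 of 52, beside 17.7%. The share of G2/M genes that rose was thus below that of all genes in depth-matched cells and near it without run 3. Mki67, a marker of dividing cells, had 3.89, 5.12 and 9.60 CPM against 3.67, 5.19 and 4.33 CPM and did not pass (0.51 ± 0.25, edgeR adjusted p = 0.136). It did pass without run 1 (0.68) and without run 2 (0.78), and was 0.043 without run 3. In thinned cells it was -0.40 and at a sum of at least 8 it was -0.075, neither of which passed. In cells thinned to 1000 UMIs, at least 2 UMIs of the G2/M list were held by 40.2%, 35.8% and 31.0% of five-gene-high cells and by 40.2%, 36.3% and 33.1% of zero-sum cells. The mean difference was -0.84 percentage points, smaller than the spread between runs, and no test was made. At a stricter 4 UMIs the shares were 5.65% ± 1.39 and 5.03% ± 0.995 (SD, n = 3).

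Proneural and neuronal genes did not rise as a group beside Neurog2. Of 20 tested proneural and Id genes 5 rose and 11 fell, with a median of -0.27. Sox4, a transcription factor of young neurons, had 226, 225 and 209 CPM in five-gene-high cells against 104, 115 and 138 CPM in zero-sum cells (0.92 ± 0.09, edgeR adjusted p = 2.39e-05). Its classes did not overlap. Sox11, its relative, had 3.56, 3.59 and 3.05 CPM against 2.00, 2.49 and 2.73 CPM and did not pass (0.52 ± 0.25). Id3, an inhibitor of proneural factors, changed by -0.86 ± 0.10 and Btg2 by -0.98 ± 0.08. The Notch target Hes1 had 180, 203 and 310 CPM against 433, 482 and 647 CPM (-1.16 ± 0.08), and of 15 Notch genes 8 fell and 1 rose. Among retinal progenitor genes 10 of 17 fell and 1 rose, with Rax at -0.76 ± 0.07 and Pax6 at -0.76 ± 0.07, both transcription factors that adult Müller glia keep. The gene that rose, Nes, codes for the filament nestin (1.06 ± 0.08).

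Vesicle and cytoskeleton genes of neurons were mixed: 8 of 25 rose, 8 fell and the median change was 0.03. Uchl1, a neuronal ubiquitin hydrolase, had 160, 108 and 112 CPM in five-gene-high cells against 67.3, 60.5 and 40.05 CPM in zero-sum cells (1.21 ± 0.11), and Stmn2, a tubulin-binding protein of growing axons, 203, 144 and 84.5 CPM against 100, 67.4 and 41.0 CPM (1.07 ± 0.07). Stmn2 overlapped, since run 1 was the highest and run 3 the lowest in both classes. Snap25, a synaptic fusion protein, changed by -0.83 ± 0.16, and Gap43, of growing axons, by -0.49 ± 0.15, which was -0.77 without run 2 and did not pass without run 3 (-0.28).

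Regulators tied to glial quiescence fell in 13 of 14 cases and rose in 0, with a median of -0.52, as in Zbtb20 (-0.39 ± 0.07), and in 7 of 14 cases in thinned cells. Of 21 genes of the p53 list 10 rose and 2 fell, with a median of 0.59, among them the ribosomal-like Rps27l (0.77 ± 0.07) and Bax, a promoter of cell death (0.70 ± 0.08). YAP targets were divided, 9 higher and 5 lower of 26: Cyr61, which is also an immediate early gene, changed by -0.61 ± 0.09, while Yap1 itself had 25.4, 35.2 and 25.6 CPM against 24.4, 27.6 and 28.8 CPM and did not pass (edgeR adjusted p = 0.445). Reactive gliosis genes were also divided, with 8 of 22 higher and 5 lower, and Gfap, at -0.42 ± 0.10, did not pass without run 1 (-0.26). Without run 2 the gliosis count was 6 higher and 10 lower, and without run 3 that of YAP targets was 5 and 3 of 25. The interferon list had 0 higher and 3 lower of 18, but 5 and 3 without run 1 and 0 and 15 without run 2. Chemokines had 4 and 3 of 12, epithelial junction genes 2 and 2 of 11, and the Hmga and Lin28 group 3 and 5 of 13. In that group Myc (1.39 ± 0.10) rose. Igf2bp2 (0.52 ± 0.17) did not pass without run 1 (0.41) or without run 3 (0.58). Lgals3, a galectin of the epithelial list, had 833, 566 and 575 CPM against 280, 268 and 199 CPM (1.42 ± 0.10).

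**Figure D4:**
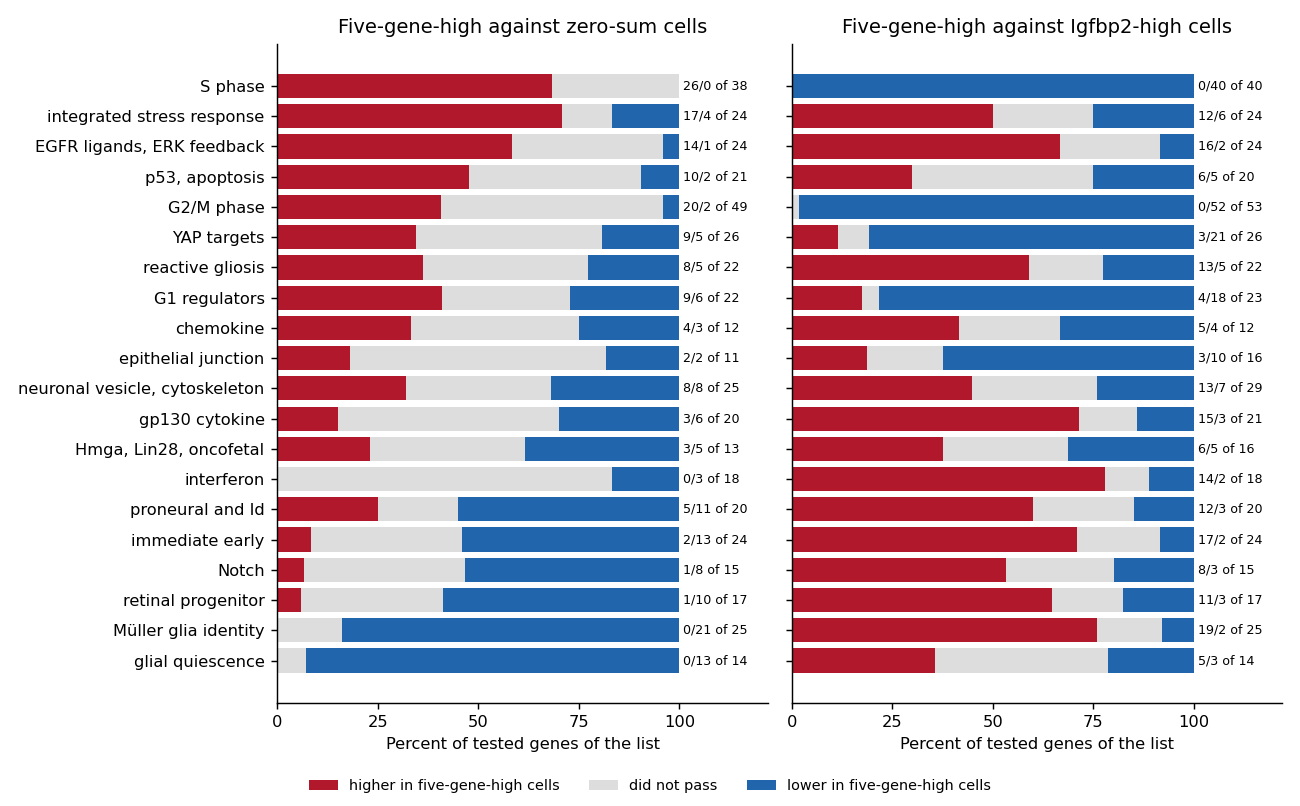
Share of the tested genes of each list that were higher (red), lower (blue) or did not pass (grey) in five-gene-high cells against zero-sum cells (left) and against Igfbp2-high cells (right), with the counts higher/lower of tested beside each bar. Against zero-sum cells the bars run from 26 of 38 S phase genes higher to 13 of 14 quiescence genes lower, and against Igfbp2-high cells all 40 S phase genes are lower.

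The other large class of Müller glia in the sort carried Igfbp2, a secreted binding protein of insulin-like growth factors, at 2 or more UMIs per 10000 with a five-gene sum under 4. These 6270 Igfbp2-high cells had a median of 19626.5 UMIs and were compared with five-gene-high cells in the same way. Of 13475 genes, 29.6% were higher and 31.0% lower in five-gene-high cells. Runs did not overlap in 59.4%, and the rule for naming was met by 2.78% upwards and 4.55% downwards. Cell cycle genes were lower, with 40 of 40 S phase genes and 52 of 53 G2/M genes. Mki67 had 3.89, 5.12 and 9.60 CPM in five-gene-high cells against 87.4, 142 and 124 CPM in Igfbp2-high cells (-4.24 ± 0.17), and Ccnd1 470, 300 and 375 CPM against 1132, 1077 and 1117 CPM (-1.57 ± 0.10). The named falls, from -6.12 to -5.33, were Speer3, Pdlim2, Hacd4, Wisp2, Rrm2, Neil3, Plk1, Hmmr, Ska1 and Ccnb1, of which the last 6 act in replication, DNA repair or mitosis. Cycle-high cells are those chosen by their UMIs of the G2/M list, which holds Mki67 and Ccnb1. When cycle-high cells were left out of both classes, Mki67 changed by -1.12 and Ccnb1 by -0.88. The smaller changes of these genes follow in part from that choice, so they are no separate result. Plk1, which is not on the list, changed by -1.06 and did not pass. Pdlim2, Hacd4, Wisp2 and Speer3, also not on the list, changed by -5.92, -5.07, -6.13 and -5.35.

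YAP targets were lower too, 21 of 26 with 3 higher and a median of -1.52, and 22 of 26 without cycle-high cells. Müller identity genes were higher, 19 of 25 with 2 lower (13 and 6 without cycle-high cells). Five-gene-high cells thus lay between Igfbp2-high and zero-sum cells in Glul, which had 567, 496 and 417 CPM in Igfbp2-high cells, and in Rlbp1, but not in Sox4 (1.60 ± 0.09 against Igfbp2-high cells) or Nupr1 (3.50 ± 0.15), which were highest in five-gene-high cells. Apoe, 0.95 ± 0.11 higher than in Igfbp2-high cells, changed by -0.035 without cycle-high cells. Syt4 had 50.3, 9.73 and 12.3 CPM against 1.93, 1.20 and 0.959 CPM (3.93 ± 0.25, edgeR adjusted p = 4.35e-08), and Hmga1 rose by 1.12 ± 0.11. Pdgfa had 54.4, 49.9 and 50.6 CPM against 56.1, 47.0 and 53.1 CPM (-0.02 ± 0.09) and did not pass. Asns did not pass either (0.55 ± 0.24, edgeR adjusted p = 0.0659), and Phgdh was lower (-1.67 ± 0.24), both named after their values were seen. Of 24 EGFR and ERK genes 16 were higher and 2 lower than in Igfbp2-high cells. Phlda1 (0.02 ± 0.15, edgeR adjusted p = 0.935) did not pass, nor did Hbegf, named here after its values were seen. The named rises were Gpd1, Ednrb, Nupr1, Ap3b2, Upp1, Tm4sf1, Dclk1, Npy, Chchd10 and Cdh13, from 3.14 to 4.23. Of these Tm4sf1 rested in part on run 2, with 14.1, 88.9 and 12.2 CPM against 2.42, 4.13 and 3.03 CPM (3.22 ± 0.36, and 2.25 without run 2).

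**Figure D5:**
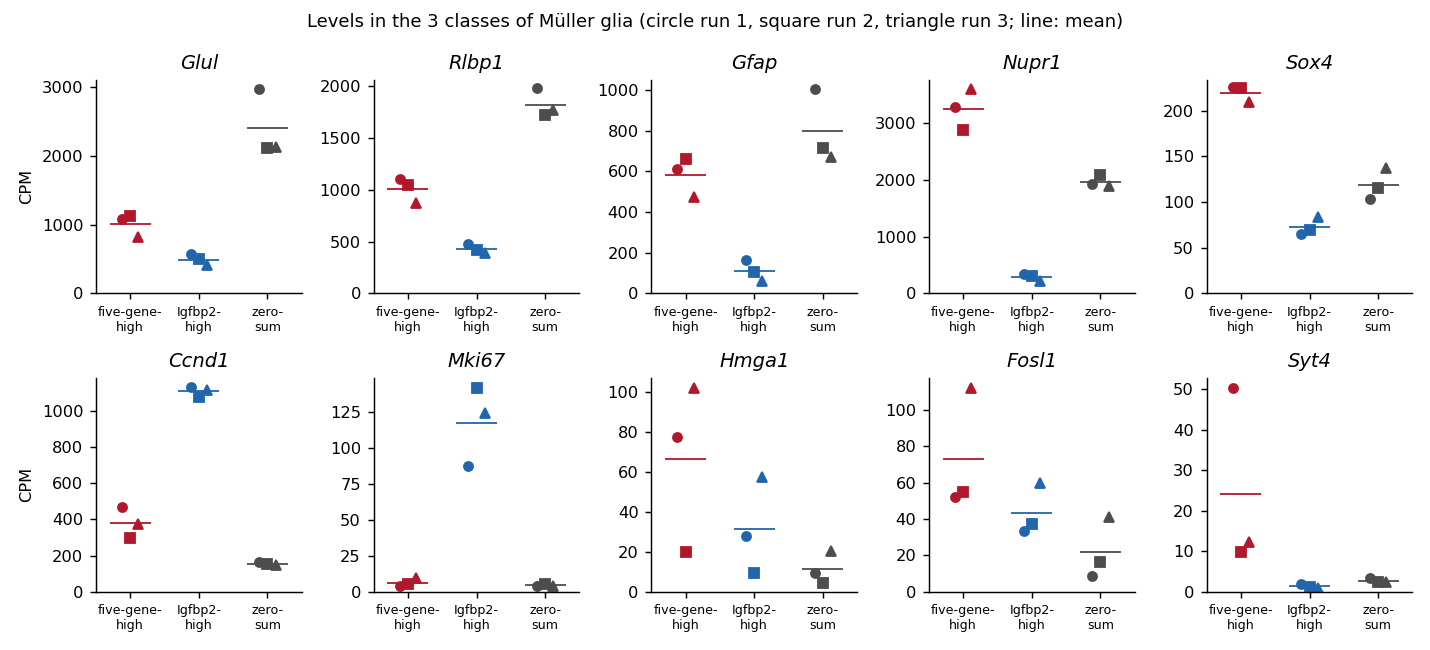
Levels (CPM of summed cells, axes from 0) of 10 genes in five-gene-high, Igfbp2-high and zero-sum cells, with 1 symbol per run and a line at the mean. Glul and Rlbp1 are intermediate in five-gene-high cells, Sox4, Nupr1 and Syt4 are highest there, and Mki67 is high in Igfbp2-high cells alone of the 3 classes.

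The authors' table of log values kept 77.6% of five-gene-high cells, against 36.4% of zero-sum cells and 77.3% of Igfbp2-high cells, by a choice that is not stated in the sources used here. It kept none of the C1q-high cells. Among the cells it kept, 9.96% on average over the runs were five-gene-high. When the comparison with zero-sum cells used these cells alone, 17 of 23 stress response genes were higher, 16 of them also among all cells, and 12 of 23 EGFR and ERK genes, 11 of them also among all cells. Of 25 Müller identity genes 22 were lower, 20 of them also among all cells.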

How the data were processed

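Per the submitters' processing notes, reads were handled with Cell Ranger and Seurat 2.3.4 on mm10; how their counting used strand is not given in the sources used here. The authors deposited whole-number UMI counts per gene and cell for 24695 cells, and a table of natural log values for 13511 cells. The deposited natural log values equal ln(1 + 10000 × count / total) and were used only to tell which cells the authors kept.

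A minimum of 500 genes and a maximum of 20% mitochondrial UMIs per cell removed 23 cells. No doublet caller was run here, so doublets were kept. UMI counts were summed per class and run, scaled by TMM after filterByExpr, and tested with edgeR 4.0.16 (quasi-likelihood, Benjamini-Hochberg over all genes tested, threshold 0.05), with the run as a block because both classes of a run come from 1 library. The 5 genes of the sum, and Igfbp2, Ccl2, Pde6h, Gngt1, C1qa, C1qb and C1qc, counted towards the scaling but were not tested. Errors of log2 changes are standard errors.

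Named were the 10 largest rises and falls past a log2 change of 1 and a mean level of 20 CPM, in 1 direction in every run, leaving out ribosomal, mitochondrial and predicted genes; up to 3 called genes per list by mean CPM, of which the text gives a selection; and fixed genes. The members and lists were chosen with earlier results of these data known. Alternatives were DESeq2 1.42.0 and its size factors, no block, no low-count filter, each run left out, a sum of at least 8, thinned or depth-matched cells, cells without G2/M signal, the authors' cells, no cell filter, UMIs split at random and library-size scaling. Scripts were tested on simulated data. R 4.3.3, Python 3.11.15, numpy 2.4.6, scipy 1.17.1, pandas 2.3.3 and matplotlib 3.10.9 were used. Results on a few genes are not reported here.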

Additional observations from a re-analysis of the deposited data

How the results depend on the processing

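Against zero-sum cells, 2589 genes were higher and 2489 lower in five-gene-high cells. The counts were 1306 and 1279 with no replicate block, 1658 and 1259 with DESeq2, and 1233 and 1139 in cells thinned to 3500 UMIs. Leaving out 1 run gave 1817 to 2623 higher and 1611 to 2475 lower. With no block, 42 of 128 single-gene results lost their call, and higher and lower genes were 10 and 0 of 24 for the integrated stress response, 8 and 0 of 24 for EGFR and ERK genes and 0 and 6 of 14 for quiescence. Against Igfbp2-high cells 3982 genes were higher and 4173 lower; higher genes numbered 2193 at a sum of at least 8 and 2628 in thinned cells, and without cycle-high cells 1987 were higher and 2242 lower.

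The mean share of five-gene-high cells, 6.96%, was 2.20% at a sum of at least 8 and 9.96% of the cells the authors kept. The cycle-high difference was 0.62 percentage points at 4 UMIs and -5.25 among the cells the authors kept. In the unused UMIs of the random split Hmga2 had 90.7 and Cd24a 261 CPM.

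Some signs changed. Mki67, which did not pass against zero-sum cells (0.51), was -0.40 in thinned cells and -0.075 at a sum of at least 8. S100a6, at 0.22 against zero-sum cells, was -0.026 at a sum of at least 8 and -0.047 in the cells the authors kept, where Cebpb was 0.045 and Atf3 0.58. Against Igfbp2-high cells Apoe was -0.31 at a sum of at least 8 and -0.035 without cycle-high cells, and Yap1 was -0.094 there. Causes were not tested. Library-size scaling was chosen after seeing the data and changed 1 of 128 single-gene calls. The depth of about 10042 UMIs per cell limits what a missing UMI of a low gene such as Neurog2 or Syt4 shows, the 3 runs limit precision, and no control group bears on the injury or on Yap5SA.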

Other observations

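Cells in which 1 gene was the larger part of the five-gene sum differed in level of genes outside the sum, given as means over the 3 runs with SD and no test, since the choice used measured values. In the 87 cells led by Hmga2, Fosl1 stood at 144 ± 53.3 CPM, Pdgfa at 115 ± 19.1 CPM and Apoe at 2174 ± 611 CPM. In the 652 cells led by Cd24a, Fosl1 stood at 51.1 ± 25.1 CPM, Pdgfa at 43.0 ± 5.45 CPM and Apoe at 4157 ± 220 CPM. In the 192 cells led by Cdsn, Asns stood at 100 ± 89.9 CPM and Phgdh at 268 ± 253 CPM, a spread as wide as the mean. In the 61 cells led by Neurog2, Syt4 was at 0, Fosl1 at 26.2 ± 34.8 CPM, Hes5 at 112 ± 94.7 CPM and Rlbp1 at 1406 ± 134 CPM.

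The 450 cells with a sum of at least 4 that the Igfbp2 limit took out had Cd24a at 427, 474 and 559 CPM in runs 1, 2 and 3, Neurog2 at 8.27, 4.82 and 5.54 CPM and Ccnd1 at 812, 557 and 588 CPM. The 221 cells of run 2 that the Ccl2 limit took out had Hmga2 at 169 CPM, Clcf1 at 137 CPM and Neurog2 at 4.49 CPM.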
